A study of Mus musculus with 3 samples.

Results

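Intratumoral NK cells that carried *Itga1* RNA were split by whether RNA of *Itga2* was also detected in the same cell, and both kinds were described here in 3 single-cell libraries. Tumor-infiltrating lymphocytes (TILs) came from MC38-Ova tumors, an ovalbumin-bearing version of the mouse colon adenocarcinoma line MC38, grown under the skin of C57BL/6 Kaede mice, in which every cell makes a fluorescent protein that switches from green to red for good under violet light. All mice had received isotype control treatment, 250000 tumor cells were injected, tumors were illuminated on day 13, and tissue was taken on day 15, 48 h later. Kaede-green (KG+) cells had entered the tumor after illumination and made 2 libraries labelled as biological replicates, and Kaede-red (KR+) cells had been in the tumor at illumination and made 1 library. Live CD45+ TER119- Kaede+ cells were sorted without CD11b+ NK1.1- cells, so myeloid cells had been depleted.

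Cells entered by counts of unique molecular identifiers (UMIs, each standing for 1 captured RNA molecule). Cells in which 1000 to 6000 genes were found and whose mitochondrial UMIs made up less than 7.5% were taken as NK cells when they held at least 1 UMI of *Ncr1*, which encodes the NK receptor NKp46, and at most 1 UMI each of *Cd3e*, *Cd8b1* and *Rora*, which mark T cells and innate lymphoid cells (ILCs). Of 34781 barcodes, 31943 passed the first filters and 7598 were such NK cells, of which the libraries Kaede-green 1 and 2 held 2439 and 2360 and Kaede-red 2799. At least 1 *Itga1* UMI was found in 2136 of them. Of these, 507 also held *Itga2* (Itga1+ Itga2+) and 1629 did not (Itga1+ Itga2-). The Itga1+ Itga2+ cells numbered 103 and 108 in the Kaede-green libraries and 296 in Kaede-red, and the Itga1+ Itga2- cells 218, 332 and 1079. As a reference, 1670 NK cells held *Itga2* without *Itga1* (Itga1- Itga2+), and 3792 held neither.

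*Itga1* and *Itga2* encode CD49a and CD49b, the collagen-binding alpha chains that pair with integrin beta 1. CD49b is carried by conventional NK cells that circulate in blood, whereas CD49a is known from tissue-resident NK cells and type 1 ILCs and is gained by NK cells exposed to TGF-beta in tissue. Cells with both integrins have been described as an intermediate form on the way from conventional to resident-like NK cells, and *Eomes*, *Itgam* and chemokine genes mark the conventional side. Granzymes are granule proteases, of which A and B are the main forms in resting mouse NK cells, while C, D, E, F and G are clustered genes induced in activated NK and T cells.

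The gated cells carried NK markers in every library. The summed level of 9 NK markers, in CPM (the UMIs of a gene scaled to the same total in every group), was 9555, 9277 and 8545 in Itga1+ Itga2+ cells and 8504, 8395 and 8200 in Itga1+ Itga2- cells, in the order Kaede-green 1, Kaede-green 2, Kaede-red, which is kept throughout. Library totals ran from 87193225 to 175848894 UMIs. The summed UMIs behind each level were 1208726, 1602808 and 7937213 for Itga1+ Itga2+ and 2599864, 4595192 and 27119069 for Itga1+ Itga2- cells. Within a library both groups were of like depth. The median Itga1+ Itga2+ cell held 7980, 11122 and 26486 UMIs and the median Itga1+ Itga2- cell 8702, 10473.5 and 24419. Between 20 and 36 barcodes were shared by any pair of libraries, and 0 of them among the Itga1+ cells.

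The integrin calls rested on few molecules. Of the Itga1+ cells, 358 held exactly 1 *Itga2* UMI, 99 held 2 and 50 held 3 or more, beside the 1629 with none. A single *Itga1* UMI placed 258 of the 507 Itga1+ Itga2+ and 781 of the 1629 Itga1+ Itga2- cells. In B cells, which should lack both integrins, *Itga1* was found in 5 of 245 cells (2.04%) and *Itga2* in 2 of 245 (0.816%) at a median of 4337 UMIs. Of these B cells, 163 came from Kaede-green 1, 80 from Kaede-green 2 and only 2 from Kaede-red. The shares thus cannot speak for Kaede-red, the deepest library. At the other gates, 287 of the Itga1+ cells held 1 UMI of *Cd3e* and 56 cells fell just outside with 2, with 250 and 22 cells for *Cd8b1* and 230 and 70 for *Rora*. The gate fixes the levels of the integrins, so these are descriptions only. *Itga1* stood at 143, 105 and 104 CPM in Itga1+ Itga2+ and at 148, 131 and 115 CPM in Itga1+ Itga2- cells. *Itga2* stood at 131, 108 and 50.9 CPM in Itga1+ Itga2+ and at 236, 181 and 86.6 CPM in Itga1- Itga2+ cells. Both genes lie side by side on chromosome 13 of GRCm38, *Itga2* at chr13:114833081-114932100 and *Itga1* at chr13:114953096-115101964, on the minus strand with 20995 bases between them. *Pelo* lies inside *Itga1* on the same strand, so reads of these overlapping genes may be uncertain.

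*Itga2* was detected in a minority of Itga1+ cells in each library. Its share was 32.1% in Kaede-green 1 (exact 95% interval 27.0 to 37.5), 24.5% in Kaede-green 2 (20.6 to 28.8) and 21.5% in Kaede-red (19.4 to 23.8). Among Itga1- NK cells of the same libraries it was 35.2% (33.2 to 37.3), 32.0% (29.9 to 34.1) and 21.8% (19.7 to 24.0). The share was lower with *Itga1* than without in all 3 libraries, and only in Kaede-green 2 were the intervals apart. With 3 pairs the smallest p of a two-sided exact permutation test is 0.25, so the design could not pass 0.05. The shares moved with depth. Cells with at least 5000 UMIs were thinned to 5000, and shallower cells were left out. Of the Itga1- Itga2+ cells gated on all UMIs, 491 of 746, 537 of 614 and 291 of 310 were deep enough. Of the Itga1+ Itga2+ cells it was 87 of 103, 103 of 108 and 291 of 296. When cells were gated after this thinning, *Itga2* was found in 26.2% (18.8 to 34.8), 15.3% (10.6 to 21.1) and 5.70% (3.82 to 8.14) of Itga1+ cells, and in 26.2% (23.8 to 28.6), 22.6% (20.5 to 24.7) and 8.93% (7.60 to 10.4) of Itga1- cells. The shares in Kaede-green 1 were then alike in size, and the intervals overlapped in each library. Cells counted as Itga1+ Itga2- therefore include cells whose *Itga2* RNA was not detectable at their depth.

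**Figure D1:**
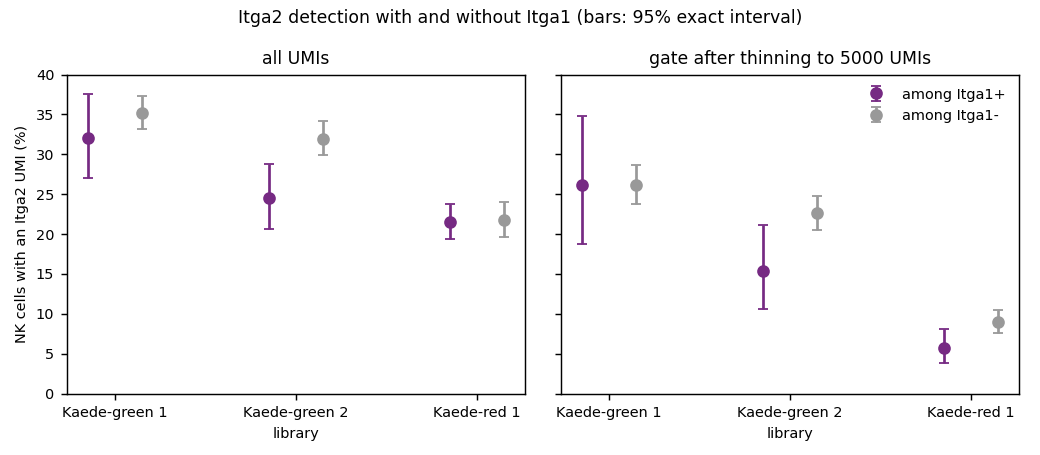
Share of NK cells with at least 1 Itga2 UMI (y axis, percent) in each library (x axis), among Itga1+ cells (purple) and Itga1- cells (gray), on all UMIs (left) and when cells were gated after thinning to 5000 UMIs (right). Points are the shares and bars the exact 95% intervals, which cover counting error only. Among Itga1+ cells the share in Kaede-red was 21.5% on all UMIs and 5.70% after thinning. Cells with fewer than 5000 UMIs were left out of the right panel.

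Itga1+ Itga2+ cells made up 4.22%, 4.58% and 10.6% of the gated NK cells of the 3 libraries, and Itga1+ Itga2- cells 8.94%, 14.1% and 38.5%. Itga1- Itga2+ cells went the other way, at 30.6%, 26.0% and 11.1%. On all UMIs both Itga1+ groups were thus most frequent in Kaede-red. When cells were gated after thinning to 5000 UMIs, the Itga1+ Itga2+ share was instead lowest there, at 2.28%, 1.71% and 1.31%, whereas the Itga1+ Itga2- share was still highest, at 6.42%, 9.44% and 21.7%. Counted over all libraries, 58.4% (exact 95% interval 54.0 to 62.7) of the Itga1+ Itga2+ cells and 66.2% (63.9 to 68.5) of the Itga1+ Itga2- cells were KR+, against 18.6% of Itga1- Itga2+ cells. After gating on thinned cells, 28 of 91 Itga1+ Itga2+ cells (30.8%, 21.5 to 41.3) and 463 of 722 Itga1+ Itga2- cells (64.1%) were KR+. Cells under 5000 UMIs, more frequent in the KG+ libraries, were left out there. KR+ cells came from 1 deeper library, so color, library and depth cannot be told apart and no test between colors was made. The colors were sorted into separate libraries, 2 Kaede-green and 1 Kaede-red. The KR+ shares therefore depend on how many cells each library held and are not shares in the tumor, and their intervals cover counting error only.

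The main comparison asked which genes differed between Itga1+ cells with and without *Itga2* in the same library. Itga1+ Itga2+ cells had less RNA of *Gzmc*, *Gzmd*, *Gzme* and *Gzmg*, of the chemokine gene *Ccl1*, and of *Spp1*, which encodes the matrix protein and cytokine osteopontin. They had more *Ccl5* and *Gzma*, the latter called under 9 of 19 alternative settings. In edgeR's quasi-likelihood test on the 6 sums, with the library as a block, 16 of 9503 genes passed a Benjamini-Hochberg adjusted p of 0.05, which is 0.168% of the genes tested. In Itga1+ Itga2+ cells 2 were higher (0.021%) and 14 lower (0.147%). At an unadjusted p under 0.05 there were 496 genes, 294 of them higher. With the library as a block, the p-values measure how far the difference between the groups varied over these 3 libraries. They do not measure the spread of levels between libraries. The labels name the Kaede-green pair as biological replicates, whereas the third library is of the other color. The count depended on single libraries, with 5 genes called without Kaede-green 1, 58 without Kaede-green 2 and 97 without Kaede-red, of which 3, 16 and 13 were among the 16.

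**Figure D2:**
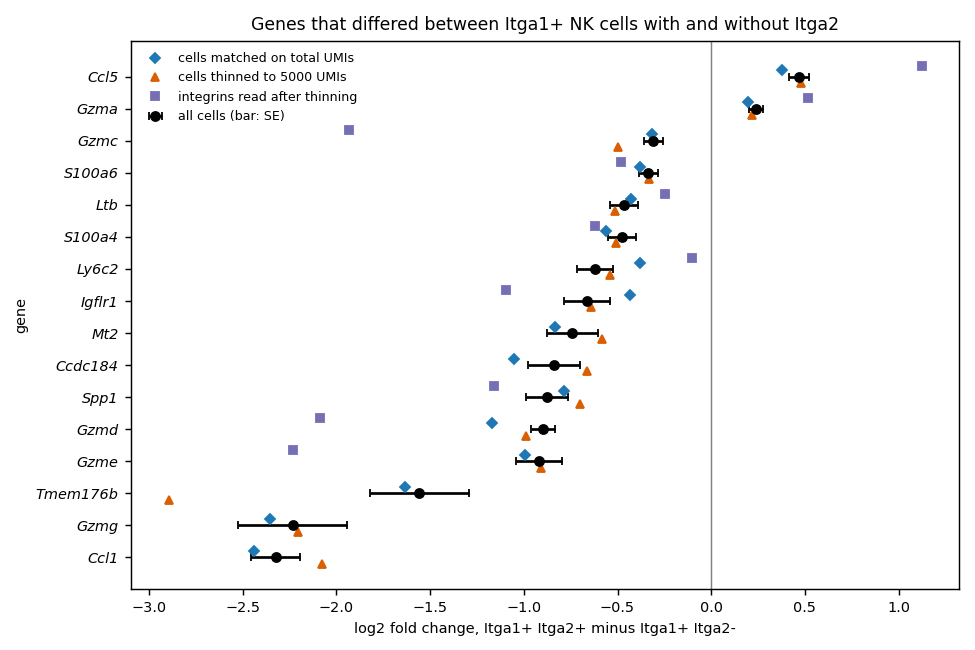
Log2 fold change (x axis) of Itga1+ Itga2+ minus Itga1+ Itga2- cells for the 16 genes that passed the test (y axis). Black points are the values on all cells with their SE, and colored points the values after matching cells on total UMIs, after thinning cells to 5000 UMIs and with the integrins read after thinning, where a gene was still tested. Ccl5 and Gzma lie to the right of 0, and the other 14 genes to the left, under each of these settings.

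Of the 5 induced granzymes, *Gzmc*, *Gzmd*, *Gzme* and *Gzmg* were lower in cells with *Itga2*, and *Gzmf* did not pass the test. *Gzmd* stood at 259, 428 and 1542 CPM in Itga1+ Itga2+ cells and at 513, 845 and 2542 CPM in Itga1+ Itga2- cells. It was lower in all 3 libraries, while the levels of both groups overlapped because Kaede-red lay far above the KG+ libraries. Its log2 fold change was -0.90 (SE 0.064, adjusted p = 2.79e-06 in edgeR). *Gzme* showed the same order within each library, at 121, 149 and 792 against 223, 402 and 1152 CPM, and its log2 fold change was -0.92 (SE 0.12, adjusted p = 0.00297 in edgeR). *Gzmg* was not detected in the Itga1+ Itga2+ cells of Kaede-green 1, with 0 of 103 cells (the count allows up to 2.91% of cells with a detected UMI and sets no limit on cells expressing the gene), and stood at 6.24 and 123 CPM in the other libraries. In Itga1+ Itga2- cells it stood at 25.0, 158 and 392 CPM, so it was lower with *Itga2* in each library. The adjusted p of *Gzmg* was 0.00293 in edgeR. In Kaede-green 1, only 2.29% of the 218 Itga1+ Itga2- cells held its UMIs, with 37 of 65 in 1 cell. That share lies within the limit of 2.91%, so no fold is given for this library. *Gzmc* had the smallest change of the 4, from 9402, 7744 and 16868 CPM to 10070.5, 10453 and 21336 CPM, a log2 fold change of -0.31 (SE 0.050, adjusted p = 0.0159 in edgeR). These genes share sequence, and 14.6% of the 60-base words of *Gzmd* transcripts, 12.3% of those of *Gzme* and 10.6% of those of *Gzmg* also occur in another granzyme, so the split of reads between them is uncertain.

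UMIs of these granzymes sat in few cells of the KG+ libraries. In Kaede-green 1, 1 cell held 166 of the 313 *Gzmd* UMIs (53.0%) of the Itga1+ Itga2+ cells, and in Kaede-green 2, 1 cell held 449 of the 726 *Gzmg* UMIs (61.8%) of the Itga1+ Itga2- cells. In Kaede-red the highest Itga1+ Itga2+ cell held 1072 of 12238 *Gzmd* UMIs (8.8%). *Gzmf* stood at 11.6, 195 and 622 against 451, 166 and 2132 CPM (log2 fold change -1.61, adjusted p = 0.355 in edgeR). Its order was reversed in Kaede-green 2, where 1 cell held 285 of the 313 UMIs of the Itga1+ Itga2+ cells. *Gzmd* was called under 16 of the 18 alternative settings in which it was tested, *Gzme* under 13 of 17, *Gzmg* under 12 of 15 and *Gzmc* under 11 of 19.

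The 4 genes lie within one cluster on chromosome 14, on the minus strand of GRCm38: *Gzme* at chr14:56117626-56120625, *Gzmd* at chr14:56129556-56132608, *Gzmg* at chr14:56156582-56159579 and *Gzmc* at chr14:56231441-56234656. Since they moved together, the 250 bases before each RefSeq start are shown, read 5′ to 3′ on the minus strand from RefSeq's GRCm38.p6, at chr14:56132594-56132843 for *Gzmd*, chr14:56120626-56120875 for *Gzme*, chr14:56159580-56159829 for *Gzmg* and chr14:56234658-56234907 for *Gzmc*. Capitals mark TGTGGT, the letters bound by RUNX factors, on either strand (the reverse reads ACCACA).
Gzmd: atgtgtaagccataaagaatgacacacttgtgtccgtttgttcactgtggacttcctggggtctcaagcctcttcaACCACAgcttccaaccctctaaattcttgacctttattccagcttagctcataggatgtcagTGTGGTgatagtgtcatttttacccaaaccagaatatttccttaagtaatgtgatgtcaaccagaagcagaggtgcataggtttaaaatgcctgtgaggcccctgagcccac
Gzme: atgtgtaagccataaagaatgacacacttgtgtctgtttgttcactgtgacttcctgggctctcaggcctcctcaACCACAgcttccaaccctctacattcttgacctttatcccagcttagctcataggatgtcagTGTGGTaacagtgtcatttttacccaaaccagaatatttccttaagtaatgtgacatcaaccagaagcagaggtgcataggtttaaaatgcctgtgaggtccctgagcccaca
Gzmg: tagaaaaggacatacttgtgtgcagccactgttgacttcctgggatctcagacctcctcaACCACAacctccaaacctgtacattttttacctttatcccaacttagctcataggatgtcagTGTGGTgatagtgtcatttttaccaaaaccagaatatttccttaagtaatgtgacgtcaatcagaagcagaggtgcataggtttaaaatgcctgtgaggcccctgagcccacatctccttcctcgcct
Gzmc: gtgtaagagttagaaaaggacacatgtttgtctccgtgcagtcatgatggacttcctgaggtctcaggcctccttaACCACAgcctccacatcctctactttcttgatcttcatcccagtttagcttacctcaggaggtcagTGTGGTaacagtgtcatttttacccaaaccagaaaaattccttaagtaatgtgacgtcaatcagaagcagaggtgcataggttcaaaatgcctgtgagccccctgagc

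Each of the 4 windows held 2 matches of TGTGGT, with the first base at -174 and -112 from the start in *Gzmd*, -175 and -113 in *Gzme*, -190 and -128 in *Gzmg*, and -174 and -108 in *Gzmc*. At least 1 match occurs in 14.0% of 32851 promoters of this length. The windows are near copies of each other, with 95.6% identity between *Gzmd* and *Gzme*, 89.7% between *Gzmd* and *Gzmg*, and 86.0 to 88.2% between *Gzmc* and the others, so a shared match is no independent feature. None of them held AGGTGTGA (a T-box motif, in 1.12% of promoters), TGANTCA (AP-1, 6.75%) or GGGCGG (KLF, 32.7%), each searched on both strands, and the windows before *Itga1* and *Itga2* held none of the 4 motifs. A match is a description of letters only.

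*Gzma*, which encodes the granzyme abundant in conventional NK cells, was higher with *Itga2*. It stood at 6724, 6844 and 3451 CPM in Itga1+ Itga2+ cells against 5738, 5712 and 2845 CPM, a log2 fold change of 0.24 (SE 0.039, adjusted p = 0.0167 in edgeR). The difference had the same direction in each library, and the groups overlapped only through the lower level of Kaede-red. *Gzma* was called under 9 of 19 alternative settings and reversed under 2 of them. *Gzmb*, at 4324, 4352 and 4249 against 3693, 3603 and 3857 CPM, and *Prf1*, which encodes perforin, at 830, 935 and 864 against 735, 743 and 881 CPM, did not pass the test, whereas DESeq2 also called *Gzmb*. Of 17 granzyme and granule genes tested, 1 was called higher and 4 lower, with a median log2 fold change of -0.09 beside 0.0056 over all genes tested.

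Chemokine genes went in both directions. *Ccl5*, a chemokine of conventional NK cells that attracts dendritic cells, stood at 2812, 2264 and 150 CPM in Itga1+ Itga2+ cells and at 1948, 1520.5 and 117 CPM in Itga1+ Itga2- cells. It was higher with *Itga2* in each library, although Kaede-red lay far below the KG+ libraries in both groups (log2 fold change 0.47, SE 0.052, adjusted p = 0.000705 in edgeR). *Ccl1*, the ligand of CCR8, stood at 4.14, 17.5 and 16.9 against 37.7, 84.2 and 79.9 CPM, so that the groups did not overlap, as was the case for 4.92% of all genes tested. Its log2 fold change was -2.32 (SE 0.13, adjusted p = 1.52e-07 in edgeR). Few cells carried this level, since 1 cell held 223 of the 387 *Ccl1* UMIs (57.6%) of Itga1+ Itga2- cells in Kaede-green 2, and 1 cell held 50 of 98 in Kaede-green 1 and 525 of 2166 in Kaede-red. *Ltb*, which encodes lymphotoxin beta, was lower at 129, 133 and 150 against 167, 189 and 205 CPM, with no overlap (log2 fold change -0.47, SE 0.074, adjusted p = 0.0158 in edgeR). Of 15 chemokine and cytokine genes tested, 1 was called higher and 2 lower, with a median of -0.07. *Ccl4* stood at 300, 260 and 33.8 against 245, 182 and 38.1 CPM and *Ccl3* at 29.0, 20.6 and 1.64 against 22.3, 40.0 and 3.95 CPM, and neither passed the test.

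The remaining 8 called genes were all lower with *Itga2*. *Spp1* stood at 199, 253 and 729 against 522, 436 and 1068 CPM (log2 fold change -0.88, SE 0.11, adjusted p = 0.00236 in edgeR). It was lower within each library, while Kaede-red was highest in both groups. *S100a4*, a calcium-binding protein linked to cell motility, stood at 223, 285 and 368 against 339, 334 and 535 CPM (adjusted p = 0.0158 in edgeR), and *S100a6*, its relative, at 1168, 1189 and 1429 against 1447, 1398 and 1894 CPM (adjusted p = 0.00957). *Mt2*, a metallothionein that binds zinc, stood at 6.62, 6.86 and 32.8 against 15.0, 15.5 and 50.8 CPM, with an adjusted p of 0.0496 in edgeR, just inside the threshold. *Tmem176b*, a gene of ILCs and resident cells, stood at 4.14, 8.73 and 3.40 against 11.5, 12.6 and 13.6 CPM without overlap (log2 fold change -1.56, SE 0.26, adjusted p = 0.0218 in edgeR). *Ly6c2*, a surface marker of maturing and memory lymphocytes, stood at 294, 177 and 130 against 494, 203 and 226 CPM (log2 fold change -0.62, adjusted p = 0.0135). *Igflr1*, a receptor of the TNF receptor family, had a log2 fold change of -0.66 (adjusted p = 0.0461) and *Ccdc184* of -0.84 (adjusted p = 0.0182). *Mt2* was called under 4 of 15 alternatives, *Ccdc184* under 5 of 15, *Igflr1* under 7 of 17, *Tmem176b* under 8 of 15 and *Ly6c2* under 10 of 19. For *S100a4* it was 9 of 19 and for *S100a6* 11 of 19.

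Markers of the conventional and the resident side were mostly not called. *Eomes*, the T-box factor that distinguishes NK cells from type 1 ILCs, stood at 165, 167 and 103 CPM in Itga1+ Itga2+ and at 112, 123 and 85.8 CPM in Itga1+ Itga2- cells. It lay above in each library but did not pass (log2 fold change 0.38, SE 0.081, adjusted p = 0.129 in edgeR). *Itgam*, which encodes CD11b, stood at 18.2, 10.6 and 1.51 against 14.6, 6.09 and 1.14 CPM. *Klra4*, an Ly49 receptor gene, stood at 431, 304 and 357 against 214, 276 and 256 CPM (log2 fold change 0.51, adjusted p = 0.129 in edgeR). Of 19 gene lists other than cell type markers, 14 had no called member. They included 14 tested genes of circulating NK maturation and egress (median log2 fold change 0.04), 22 lineage transcription factors (0.02), 14 inhibitory receptors (-0.11), 10 Ly49 receptors (0.25), 15 TGF-beta pathway genes (0.06) and 20 cell cycle genes (0.04). Of the 223 genes tested in these 14 lists, 0 passed in edgeR and 0 in DESeq2, beside 0.168% called over all genes in edgeR, and the lists were set apart here for having no call. An unadjusted p under 0.05 in edgeR was found for 41 of the 223 (18.4%), among them 5 Ly49 receptors, beside 5.22% of all genes tested. Of 16 residency genes only *Tmem176b* was called (median -0.09), while 6 had an unadjusted p under 0.05 in edgeR and 11 a log2 fold change below 0. The heat shock list, 1 of the 14, had 10 of 11 log2 fold changes below 0. The furthest from 0 were *Hspa1b* (log2 fold change -1.28, adjusted p = 0.0599 in edgeR) and *Hspa1a* (-1.21, adjusted p = 0.18), stress-induced chaperone genes whose UMIs also sat in few cells. *Hspa1b* was called under 10 of 16 alternatives, *Ifitm2* under 10 of 19, *Klra4* under 9 of 19 and *Eomes* under 4 of 17. The 26 lists were picked with earlier results of these data known.

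Markers of other cell types were present in the gated cells. The summed level of the 9 myeloid markers was 565, 1056 and 34.1 CPM in Itga1+ Itga2+ cells and 610, 242 and 48.9 CPM in Itga1+ Itga2- cells. It was higher with *Itga2* only in Kaede-green 2, and it was far lower in Kaede-red than in the KG+ libraries. A few cells held most of it. In Kaede-green 1, 1 cell held 439 of the 462 *Cd74* UMIs of the Itga1+ Itga2+ cells, and in Kaede-green 2, 1 cell held 560 of 1050. The macrophage genes *C1qa*, *C1qb*, *C1qc* and *Adgre1* were at 0 in the Itga1+ Itga2+ cells of Kaede-green 1. Of 4 myeloid markers tested 0 were called in edgeR or DESeq2, with 1 (*Lyz2*) at an unadjusted p under 0.05 and a median of 0.66. T cell markers summed to 78.6, 148 and 54.8 against 91.5, 133 and 55.1 CPM, and ILC markers to 196, 203 and 95.2 against 211, 205 and 124 CPM. The ILC sums hide differences of single genes. Of 6 ILC markers tested, *Tmem176b* was called lower with *Itga2*, and 5 had a log2 fold change below 0 (median -0.95). An unadjusted p under 0.05 in edgeR was found for 4 of the 6. The part of ILC-like cells in the main result was not tested. When every cell with 2 or more UMIs of another type's markers was left out, 89 Itga1+ Itga2+ and 235 Itga1+ Itga2- cells remained, 2 genes were called (*Cxcl10* and *Klra5*), and of the 8 main genes still tested 0 were called and 3 kept their sign, while *Ccl5*, *Gzma*, *Spp1*, *S100a4* and *S100a6* turned. The part of other cell types in the main result, as against the loss of cells, was not tested.

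Most of the 16 genes were called again when the gate was kept and depth was made equal. With equal numbers of cells matched on total UMIs, 34 genes were called, 13 of them among the 16. Those not called again were *Gzma* (log2 fold change 0.20, adjusted p = 0.162 in edgeR), *Igflr1* and *Ly6c2*. With the groups as gated, cells under 5000 UMIs left out and the others thinned to 5000, 36 were called, 14 of them among the 16. In the matched cells *Gzmd* had a log2 fold change of -1.17, *Ccl1* of -2.44, *Spp1* of -0.79 and *Ccl5* of 0.38, near the values on all cells. When cells were gated after thinning, 3756 genes could be tested, 17 were called and 4 of the 11 main genes still tested were among them.

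On all UMIs, Itga1+ Itga2+ cells lay between Itga1+ Itga2- and Itga1- Itga2+ cells and nearer to the former, a place that did not hold when the integrins were read on thinned cells. For this, 35 genes were chosen on the last 2 groups alone, by a 2-fold difference in all 3 libraries and a mean of at least 20 CPM, and the place of the Itga1+ Itga2+ level was read as a percentage of the way between them on the log2 scale. For the 14 genes higher in Itga1- Itga2+ cells, among them *Ccl5*, *Ifng*, *Cxcr4* and *Klf2*, the median place was 23.6%, 22.0% and 20.7% of the way in the 3 libraries. For the 21 lower genes, among them *Gzmd*, *Gzmc*, *Spp1* and *S100a4*, it was 24.7%, 24.6% and 22.2%. *Ccl5* lay at 22.9%, 25.5% and 15.4% and *Gzmd* at 13.4%, 15.7% and 22.5%. The place was not uniform, since *Ccl1* lay at 90.4%, 99.6% and 166% of the way and *Ifitm1* at 28.9%, -54.2% and -1.25%. Of the 16 genes that differed from Itga1+ Itga2- cells, 10 lay between the Itga1+ Itga2- and Itga1- Itga2+ levels in all 3 libraries, 4 in 2 libraries, and *Tmem176b* and *Ly6c2* in 1. These 16 were chosen on the Itga1+ Itga2+ sums themselves. The share of all tested genes that lay between was not counted, so this is a description only.

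The place moved with depth and gate. It was 29.0%, 16.4% and 25.3% for the higher and 32.2%, 31.8% and 23.1% for the lower genes when gated cells were thinned. When the gate was read on thinned cells it was 60.0%, 22.8% and 19.9% for the higher and 58.8%, 77.2% and 44.7% for the lower genes. With only the integrins read after thinning it was 58.3%, 24.7% and 69.0%, and 72.0%, 110% and 55.1%. The lower genes thus lay further from Itga1+ Itga2- cells in all 3 libraries in both settings that read the integrins on thinned cells, while the higher genes did so in some libraries. Without cycling cells, 20 of the lower genes lay at 83.4%, 38.6% and 16.7% and the higher genes at 29.2%, 6.59% and 30.4%. With at least 2 *Itga1* UMIs the higher genes lay at 9.55%, -7.48% and 18.1% and the lower at 14.6%, 18.8% and 18.8%, and with at least 2 *Itga2* UMIs at 35.9%, 4.30% and 15.9%, and 13.7%, 4.58% and 24.3%.

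**Figure D3:**
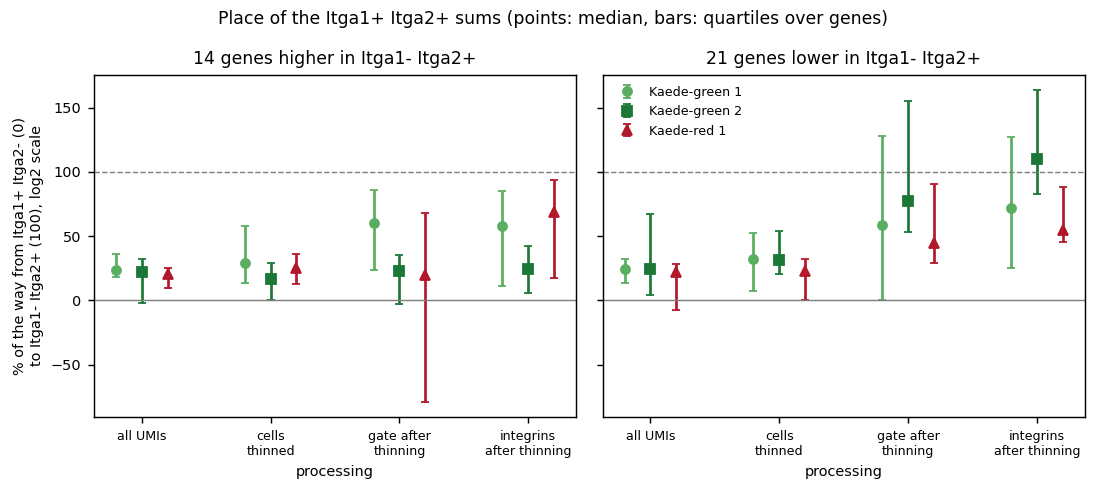
Place of the Itga1+ Itga2+ level (y axis) on the log2 scale from Itga1+ Itga2- (0) to Itga1- Itga2+ cells (100), for 14 genes higher (left) and 21 genes lower (right) in Itga1- Itga2+ cells, in 4 ways of processing (x axis). Points are medians and bars quartiles over genes, per library. On all UMIs the 6 medians lie between 20.7% and 24.7%, and after gating on thinned cells they spread from 19.9% to 77.2%.

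Against Itga1- Itga2+ cells, the comparison asked what differed with *Itga1* among cells that carried *Itga2*. It used the same Itga1+ Itga2+ sums as the first comparison, so the results of both are not independent. In edgeR 599 of 9994 genes passed (5.99%), 271 higher (2.71%) and 328 lower (3.28%) in Itga1+ Itga2+ cells. Depth went with the groups here, since the median Itga1- Itga2+ cell held 5741, 7349 and 13272.5 UMIs. With cells matched on total UMIs, 96, 104 and 184 cells a group, 10 genes were called, although 443 of 555 main genes still tested kept their sign. The count was 365 without Kaede-green 1, 122 without Kaede-green 2 and 1128 without Kaede-red.

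*Ccl3*, *Ccl4* and *Ccl5* were lower and *Ifitm1*, *Ifitm2* and *Ifitm3* higher with *Itga1*, also in matched cells. Of 18 chemokine and cytokine genes tested, 7 were called lower and 0 higher (median log2 fold change -0.49). Of 17 interferon response genes, the *Ifitm* genes were the 3 called higher, while 5 were called lower, *Isg15*, *Oasl1*, *Rsad2*, *Ifit2* and *Ifi27l2a* (median -0.18). *Ccl3* stood at 29.0, 20.6 and 1.64 CPM in Itga1+ Itga2+ and at 238, 204 and 37.9 CPM in Itga1- Itga2+ cells (log2 fold change -3.45, SE 0.19, adjusted p = 4.42e-08 in edgeR). Its log2 fold change was -2.97 in matched cells. *Ccl4*, a chemokine gene related to *Ccl3*, stood at 300, 260 and 33.8 against 1218, 1244 and 304 CPM (-2.44, and -1.75 in matched cells). Both were lower in each library, and the groups did not overlap for either gene. *Ccl5* stood at 9699, 7250.0 and 572 CPM in Itga1- Itga2+ cells (log2 fold change -1.77, and -0.71 in matched cells), and *Ccl4* and *Ccl5* were called under 18 of 19 alternatives. *Ifitm1* stood at 135, 348 and 321 against 14.6, 59.7 and 57.2 CPM without overlap, as for 7.73% of all genes tested (log2 fold change 2.69, SE 0.13, adjusted p = 1.11e-08 in edgeR), and *Ifitm2* at 232, 389 and 664 against 33.8, 85.1 and 111 CPM (2.52). In matched cells they were higher by 1.49 and 1.44 on the log2 scale. *Ifitm1* turned to -0.31 when cells with markers of other types were left out.

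Granzymes C to G were higher with *Itga1* on all cells, and *Gzmc* alone of them was called in matched cells. *Gzmd* stood at 2.16, 10.0 and 276 CPM in Itga1- Itga2+ cells, below Itga1+ Itga2+ cells in each library, with a log2 fold change of 4.07 (SE 0.46, adjusted p = 0.000152 in edgeR). In matched cells it was 2.46 and did not pass (adjusted p = 0.163 in edgeR). *Gzmc* stood at 794, 1171 and 9233 CPM (log2 fold change 2.43, and 0.78 in matched cells). *Gzma* was lower with *Itga1* (log2 fold change -0.64, adjusted p = 0.000531 in edgeR) but stood at 0.01 in matched cells. Of the granule list 5 genes were called higher and 1 lower, and *Spp1* was higher by 1.59 (0.10 in matched cells, not called), *S100a4* by 1.14 and *Lgals3*, which encodes galectin-3, by 1.05 on the log2 scale.

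Genes of circulating NK cells were lower with *Itga1*, with 7 of 15 called lower, 0 called higher and a median log2 fold change of -0.61 beside 0.0089 over all genes tested. *Itgam* stood at 60.0, 29.8 and 7.79 CPM in Itga1- Itga2+ cells (log2 fold change -1.77, SE 0.22, adjusted p = 0.000286 in edgeR), above the 18.2, 10.6 and 1.51 CPM of Itga1+ Itga2+ cells in each library. *Klf2*, a factor that keeps lymphocytes in circulation, had a log2 fold change of -1.10, *Ifng* of -1.19 and *Eomes* of -0.67. *Eomes* stood at 322, 301 and 129 CPM in Itga1- Itga2+ cells, so its level in Itga1+ Itga2+ cells lay between those of Itga1+ Itga2- and Itga1- Itga2+ cells in every library. Of 18 immediate early genes 13 were called lower, among them *Fos* and *Junb*, and 17 had a log2 fold change below 0 (median -0.53). Of 20 cell cycle genes 11 were called higher, among them *Mki67* and *Top2a*, and all 20 lay above 0 (median 0.61). Of 21 hypoxia and glycolysis genes 9 were called higher, among them *Ldha*, and 16 lay above 0 (median 0.46). Over all genes tested, 2.71% were called higher, 3.28% were called lower and 51.1% lay above 0. *Mki67*, *Top2a* and *Ldha* turned to -0.68, -0.62 and -0.04 in matched cells, and none of these lists had a member among the 10 genes called there. Of 4 myeloid markers 3 were called higher, *Lyz2*, *H2-Aa* and *Cd74* (median 1.61), and their part in this comparison was not tested.

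**Figure D4:**
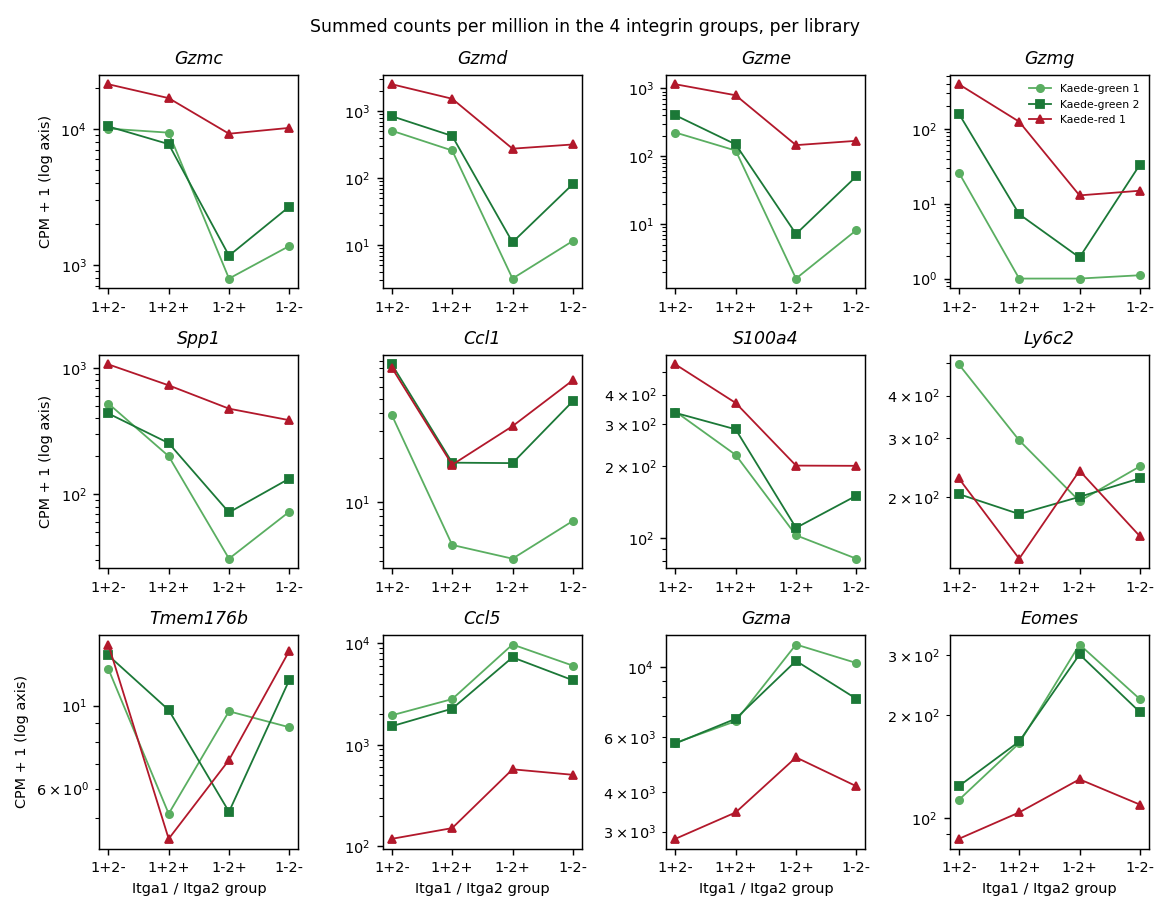
Level of 12 genes (y axis, CPM + 1 on a log axis) in the 4 integrin groups (x axis, 1+2- being Itga1+ Itga2- cells and so on), with 1 point per library (green for Kaede-green 1 and 2, red for Kaede-red). Gzmd, Gzme and Spp1 step down, and Ccl5, Gzma and Eomes step up, from Itga1+ Itga2- over Itga1+ Itga2+ to Itga1- Itga2+ cells in each library, while Ccl1, Ly6c2 and Tmem176b do not follow one order in all 3. Itga1- Itga2- cells, plotted last, are not part of this order.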

How the data were processed

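The libraries were made with the 10x 3' v3 kit from TILs of MC38-Ova tumors, and the counts the authors deposited are UMIs for each gene and cell barcode, aligned to mm10, filtered to cells and not normalized. The matrix headers name Cell Ranger 6.0.1 and the submitters' processing notes 6.1.2. No column of values was without a sample (0). The study marked doublets in later steps, and no doublet caller was run here. The gate, and an alternative without cells holding 2 or more UMIs of other types' markers, act only on doublets with other cell types. A doublet of an Itga1+ and an Itga2+ NK cell would pass both and count as Itga1+ Itga2+. The part of such doublets was not tested. UMIs were summed per library and integrin group, giving 6 sums a comparison, since cells are not replicates. The sums were tested with edgeR 4.0.16 (R 4.3.3, limma 3.58.1; TMM, filterByExpr, quasi-likelihood test, Benjamini-Hochberg over all genes tested), with library as a block and without the gate genes, whose levels the gate sets. Both sums of a comparison come from the same library, so libraries pair them by construction, and their deviations from the group means correlated at 0.32, 0.39 and 0.78 (first comparison) and 0.38, 0.41 and 0.72 (second). The test, tried on simulated counts, recovered 78% of 2-fold and 98% of 4-fold changes in the first comparison (9509 genes) and 69% and 98% in the second (10000 genes). These counts were drawn with the same small fixed dispersion for every gene. They held no genes carried by a few cells, as the real sums did. The recovery is thus a check of the method and not its power on these data. Alternatives were DESeq2 1.42.0, other size factors, no filter, no block, leaving out each library, thinning to 5000 or 2000 UMIs (seed 1), matching on total UMIs in 20 bins, and stricter gates. Thinning drew cells down at random and left out those with fewer UMIs than the target. Reading only the integrins after thinning, and the place between groups, were added after seeing the data. Intervals of shares are 95% Clopper-Pearson intervals, and they and the limit for a count of 0 (3 cells) reflect counting error alone. Named genes were the 10 largest changes each way past the threshold with a mean of at least 20 CPM and 1 direction in all 3 libraries, plus members of 26 lists and, after their values were seen, *Cxcl10* and *Klra5*. A member of the lists is not reported here. Members and lists were chosen with earlier results of these data known. Coordinates came from GENCODE vM21 by identifier (32158 of 32285 genes), and promoters from RefSeq, read with Biopython 1.88. Figures used matplotlib 3.10.9 in Python 3.11.15.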

Additional observations from a re-analysis of the deposited data

Results flagged for a closer look

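Some myeloid markers were higher with *Itga1* in the Kaede-green libraries and lower in Kaede-red, in the comparison of Itga1+ Itga2+ with Itga1- Itga2+ cells. In Kaede-red the log2 ratio was -0.22 for *Lyz2*, -0.25 for *H2-Aa* and -0.16 for *Cd74*, while both Kaede-green libraries had ratios above 0. The Kaede-red values rested on 3 against 2 UMIs for *Lyz2*, 18 against 13 for *H2-Aa* and 201 against 138 for *Cd74*. In Kaede-green 1, 1 Itga1+ Itga2+ cell held 13 of 13, 182 of 193 and 439 of 462 of their UMIs. The difference between the colors was not tested, since there is 1 Kaede-red library.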

How the results depend on the processing

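Of the first comparison 16 genes were called, and 599 of the second. DESeq2 called 10 and 237, no filter on low counts 67 and 965, a gate after thinning to 2000 UMIs 1 and 6, cells thinned after gating 36 and 293, at least 2 *Itga2* UMIs 25 and 325, no cycling cells 54 and 197, no cells with other types' markers 2 and 46, matching on total UMIs 34 and 10, and integrins read after thinning 69 and 7. In the first alone, at least 2 *Itga1* UMIs gave 10 and at least 1 *Eomes* UMI 9, and in the second a gate after thinning to 5000 UMIs gave 9. Leaving out 1 library gave 5 to 97 and 122 to 1128. With no replicate block, edgeR called 0 in either comparison (39 and 435 genes at an unadjusted p under 0.05), since the spread between libraries then stays in the error. The Itga2 share of Itga1+ cells in Kaede-green 1, Kaede-green 2 and Kaede-red (32.1%, 24.5%, 21.5%) became 26.2%, 15.3% and 5.70% (gate after thinning to 5000), 10.0%, 5.43% and 4.72% (to 2000), 22.7%, 15.1% and 6.00% (integrins after thinning) and 14.5%, 9.78% and 6.58% (2 *Itga2* UMIs), and 19.4% in Kaede-green 2 without cells with other types' markers. The KR+ share of Itga1+ Itga2+ cells (58.4%) became 30.8%, 35.3% and 35.2% under the first 3, 51.0% (2 *Itga2* UMIs), 73.9% (2 *Itga1* UMIs), 46.7% (no cycling cells) and 37.1% (other types' markers), and that of Itga1+ Itga2- cells (66.2%) 46.2% (thinning to 2000), 76.9%, 56.6% and 45.5% under the last 3, and 69.7% with *Eomes*.

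In the first comparison 11 log2 fold changes of named genes reversed, 109 lost and 66 gained the call, and 248 stayed. Without cells with other types' markers, *Ccl5* turned to -0.42, *Gzma* to -0.22, *Spp1* to 0.76, *S100a4* to 0.53, *S100a6* to 0.078, *Ifitm2* to 1.23 and *Lgals3* to 0.15. *Gzma* was -0.22 after thinning to 2000, and *Cd74* -0.24 to 1.03 with 1 library left out (lowest without Kaede-green 2), -0.81 with the gate after thinning to 5000 and -1.84 with integrins after thinning. In the second 14 reversed, 152 lost the call and 417 stayed. Matching gave *Cdca8* -0.34, *Gzma* 0.0072, *Mki67* -0.68, *Top2a* -0.62, *Ldha* -0.045, *Cd74* -0.46 and *H2-Aa* -0.11. Thinning to 2000 gave *Klf2* 0.29, *Fos* 1.12 and *Junb* 0.012, leaving out cells with other types' markers *Ifitm1* -0.31 and *Fos* 0.092, and integrins after thinning *Cd74* -0.52 and *H2-Aa* -0.20. The causes were not tested.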
